A study of Homo sapiens with 8 samples.

Results

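A total of 982 of the 4025 NFYB peaks in RH30 cells carrying the control guide sgCtrl1 overlapped no peak in any of the other 5 peak lists of the series, a share of 24.4% (exact Clopper-Pearson 95% interval 23.1 to 25.8%). They were chosen by that overlap alone, with 1 shared base enough to leave a peak out, so their absence from the other lists is the rule and not a finding. They are called sgCtrl1-only peaks here, and the remaining 3043 peaks of the library are the other sgCtrl1 peaks. Of the 982, 86 lay at an end of a protein-coding gene, within 1000 bp of its first or last base, and 896 lay elsewhere. The 6 lists together held 22724 peaks.

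The peaks came from CUT&RUN, in which an antibody directs a nuclease to cut out the DNA around a bound protein, and the fragments are sequenced. The sgCtrl1 library was made with an NFYB antibody on RH30 cells at day 8, with an inducible cytosine base editor, selected with blasticidin and induced with rapamycin. The other RH30 lists were NFYB libraries of the same system with the guides sgCCAAT2a, sgCCAAT2b and sgCtrl2, and the RH4 lists were NFYB and NFYC libraries of uninfected cells. Both are alveolar rhabdomyosarcoma lines, and all libraries were labelled as carrying the PAX3-FOXO1 fusion. The RH30 libraries are named RH30 in their titles, while their cell line field reads RH4; whether the engineered line was 1 clone was not given in the sources used here. Each guide and antibody had 1 library, so no difference between conditions has a replicate check, no p-value is given, and the intervals cover the counting of peaks only. The peak lists carry positions and no expression, so the cell type could not be checked through marker levels.

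NF-Y is built from 3 subunits. NFYB and NFYC pair through histone folds, and NFYA joins them and reads the sequence CCAAT, a box found a short way upstream of many promoters, among them those of cell-cycle, lipid synthesis and protein-folding genes. Promoters with CCAAT boxes often also carry GC boxes, the sites read by SP1 and its relatives.

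The sgCtrl1-only peaks that lay wholly inside a promoter window (250 bases before to 50 after an annotated start, in RefSeq's sequence of GRCh38.p14) show what the letters under such peaks can look like. Only 16 of the 982 (1.63%) did so, and the 8 that stand first in the file are printed 5′ to 3′ on the strand of the gene, in lower case with CCAAT and its reverse complement ATTGG in capitals. They lie at SGTA (chr19:2783329-2783517, minus strand), NDRG4 (chr16:58499945-58500133, plus strand), ARHGEF17-AS1 (chr11:73309328-73309516, minus strand), LMOD1 (chr1:201946515-201946703, minus strand), ANXA6 (chr5:151157753-151157941, minus strand), SLC68A1 (chr10:102461247-102461435, plus strand), MORN5 (chr9:122159754-122159942, plus strand) and TLL2 (chr10:96513913-96514101, minus strand).
SGTA: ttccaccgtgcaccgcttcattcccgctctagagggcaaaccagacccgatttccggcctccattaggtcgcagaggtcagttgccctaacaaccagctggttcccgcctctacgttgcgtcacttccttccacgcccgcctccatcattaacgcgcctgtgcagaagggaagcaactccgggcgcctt
NDRG4: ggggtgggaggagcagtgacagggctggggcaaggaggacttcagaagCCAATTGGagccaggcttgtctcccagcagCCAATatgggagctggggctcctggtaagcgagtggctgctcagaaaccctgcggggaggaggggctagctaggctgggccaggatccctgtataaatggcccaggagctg
ARHGEF17-AS1: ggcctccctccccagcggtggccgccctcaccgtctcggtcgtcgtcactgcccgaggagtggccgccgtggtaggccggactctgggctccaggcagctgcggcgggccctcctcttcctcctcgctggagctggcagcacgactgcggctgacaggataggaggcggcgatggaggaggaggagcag
LMOD1: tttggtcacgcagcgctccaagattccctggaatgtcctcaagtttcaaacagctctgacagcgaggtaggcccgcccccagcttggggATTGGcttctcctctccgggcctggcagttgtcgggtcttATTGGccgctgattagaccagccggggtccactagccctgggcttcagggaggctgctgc
ANXA6: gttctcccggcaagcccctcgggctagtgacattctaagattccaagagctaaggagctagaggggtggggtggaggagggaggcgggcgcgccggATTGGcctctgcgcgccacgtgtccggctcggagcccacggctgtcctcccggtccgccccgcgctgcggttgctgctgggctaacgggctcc
SLC68A1: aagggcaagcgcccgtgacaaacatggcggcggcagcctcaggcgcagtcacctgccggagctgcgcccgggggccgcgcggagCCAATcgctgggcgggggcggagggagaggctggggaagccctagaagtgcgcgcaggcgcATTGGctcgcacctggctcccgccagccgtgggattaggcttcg
MORN5: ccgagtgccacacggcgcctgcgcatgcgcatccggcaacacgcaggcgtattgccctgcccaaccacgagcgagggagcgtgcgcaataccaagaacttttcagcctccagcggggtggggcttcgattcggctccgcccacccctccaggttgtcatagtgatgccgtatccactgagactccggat
TLL2: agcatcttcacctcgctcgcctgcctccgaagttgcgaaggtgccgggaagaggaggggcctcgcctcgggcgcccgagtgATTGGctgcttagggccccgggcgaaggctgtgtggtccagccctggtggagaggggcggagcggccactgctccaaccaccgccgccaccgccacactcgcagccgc

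Of these 8, the peaks at NDRG4, LMOD1, ANXA6, SLC68A1 and TLL2 hold the box, and those at SGTA, ARHGEF17-AS1 and MORN5 do not. NDRG4, a gene of the N-myc downstream-regulated family, has 3 hits, 2 of them overlapping in the run that reads the same on both strands. LMOD1, which encodes leiomodin 1, a nucleator of actin filaments in smooth muscle, has 2, the nearer one 3 bp from the centre of the peak. ANXA6, a calcium-dependent membrane-binding annexin, has 1 hit 4 bp from the centre, and TLL2, a metalloprotease related to tolloid, has 1 at 11 bp. SLC68A1 has 2 hits, the nearer 8 bp from the centre.

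Over all 16 such peaks, 9 held CCAAT on either strand (56.3%, interval 29.9 to 80.2%), against 1137 of 1197 other sgCtrl1 peaks in windows (95.0%, interval 93.6 to 96.2%). In peaks found only in RH30 sgCtrl2 by the mirrored rule, 53 of 186 held it (28.5%, interval 22.1 to 35.6%). Of all 189-bp stretches of the 34943 promoter windows in the table, 26.7% hold the letters. Besides the 5 above, the box was inside the peaks at UBE2D3 (a ubiquitin-conjugating enzyme), RBL2 (the pocket protein p130), DCTN2 (a dynactin subunit) and MIR222HG (the host of miR-222). It was not inside those at HPD, ALOXE3, ZNF207 and TIMM9. The sgCtrl1-only interval lies below that of the other sgCtrl1 peaks and overlaps that of the sgCtrl2-only peaks. Where present, the box lay a median of 11 bp from the centre in sgCtrl1-only peaks, 16 bp in other sgCtrl1 peaks and 32 bp in sgCtrl2-only peaks. It was within 25 bp of the centre in 7 of 9, 752 of 1137 and 20 of 53 peaks.

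The GC box GGGCGG, or CCGCCC on the other strand, was in 9 of 16 sgCtrl1-only peaks, against 874 of 1197 other sgCtrl1 peaks (73.0%) and 142 of 186 sgCtrl2-only peaks (76.3%). It is in 37.8% of the 189-bp stretches, and a CCGCCC hit can overlap a CCAAT hit by 2 letters. When a peak needed only 50% of its length in a window, CCAAT was in 18 of 34 sgCtrl1-only peaks (52.9%), against 1543 of 1706 other sgCtrl1 peaks (90.4%) and 95 of 369 sgCtrl2-only peaks (25.7%). In the last 1207 places of the file the counts were 5 of 10 sgCtrl1-only and 27 of 39 other sgCtrl1 peaks (69.2%), whose intervals overlap widely. No match in a window says only that these letters are not in it.

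**Figure D1:**
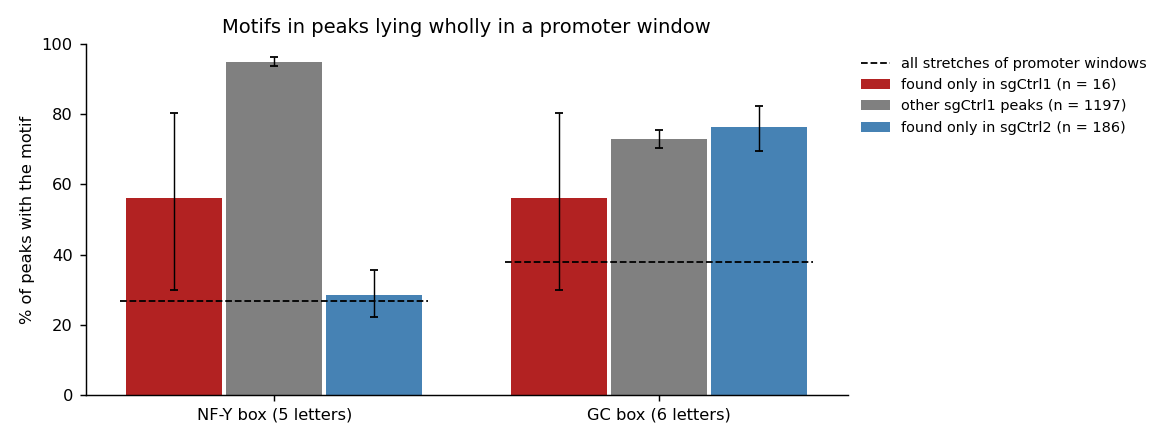
Share of peaks wholly inside a promoter window that hold CCAAT or the GC box, in percent on the vertical axis, for sgCtrl1-only, other sgCtrl1 and sgCtrl2-only peaks; bars are shares, lines exact 95% intervals and dashes the share of all 189-bp stretches. CCAAT is in 9 of 16 sgCtrl1-only peaks, 95.0% of other sgCtrl1 peaks and 28.5% of sgCtrl2-only peaks, and the first of these has the widest interval.

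Over the whole file, most sgCtrl1-only peaks lay away from gene ends. Ends of protein-coding genes held 86 (8.76%, interval 7.06 to 10.7%), against 2061 of 3043 other sgCtrl1 peaks (67.7%, interval 66.0 to 69.4%). In sgCtrl2-only peaks the share was 20.1% (707 of 3509). Bodies of protein-coding genes, beyond 1000 bp from either end, held 372 sgCtrl1-only peaks (37.9%), against 448 other sgCtrl1 peaks (14.7%). No annotated gene lay at 374 (38.1%), against 319 other sgCtrl1 peaks (10.5%). Genes of other kinds had an end at 47 (4.79%) and a body at 103 (10.5%), against 147 (4.83%) and 68 (2.23%) of the other sgCtrl1 peaks. The median distance to the nearest annotated start was 25192 bp over 962 sgCtrl1-only peaks with a start on their chromosome, against 158 bp over 2968 other sgCtrl1 peaks and 23034.5 bp over 3412 sgCtrl2-only peaks. A start lay within 1000 bp of 79 of the 962 (8.21%), and more than 100 kb away from 128. The annotated starts used here include none on chromosome 8 and lack some genes. At MCL1, whose end was 38 bp from the peak centre, the nearest start used was 5096 bp away. The distances to starts can thus be too long.

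**Figure D2:**
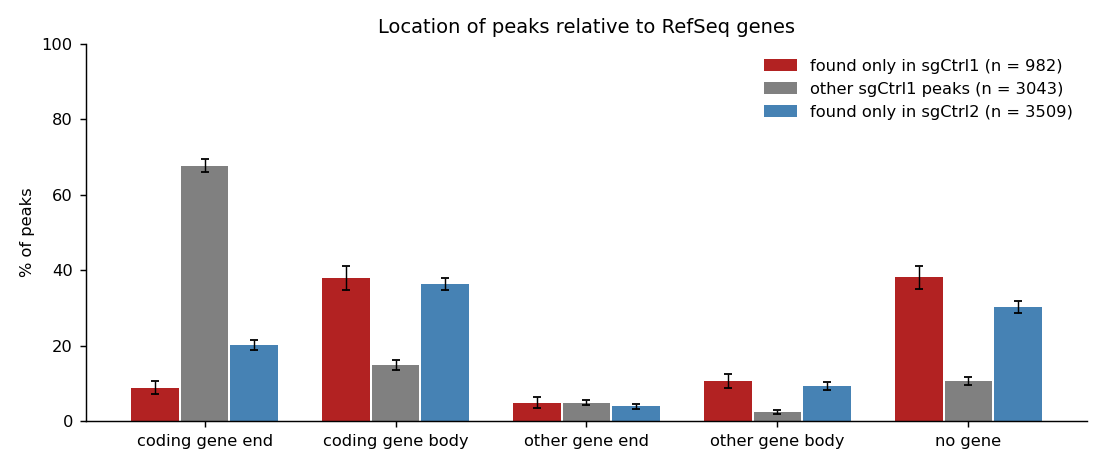
Share of peaks in each of 5 locations relative to annotated genes, in percent, for sgCtrl1-only, other sgCtrl1 and sgCtrl2-only peaks; lines are exact 95% intervals. Protein-coding gene ends hold 8.76% of sgCtrl1-only peaks and 67.7% of other sgCtrl1 peaks, while gene bodies hold 37.9% and 14.7%, over the whole file.

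Membership followed the order of the file. The median place of sgCtrl1-only peaks was 3489.5 of 4025, against 1525 for other sgCtrl1 peaks, and 903 of the 982 (92.0%) stood in the last 1207 places. Only 9 stood among the first 2012 places. Cut into 10 equal bins, the file held, from first to last bin, 1, 0, 0, 2, 6, 14, 56, 187, 342 and 374 sgCtrl1-only peaks. Thus 74.8% of those 1207 peaks were sgCtrl1-only. The score column is constant, so what the order ranks could not be read from it. Within chromosomes, place followed the number in the peak name (median Spearman correlation 0.983 over 23 chromosomes). The name does not say what that number ranks. The 86 gene-end peaks stood earlier, at a median place of 3176.5, than the 896 others, at 3510.5.

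The 2 kinds of sgCtrl1 peak were therefore also set side by side within the last 1207 places. There, gene ends held 64 of 903 sgCtrl1-only peaks (7.09%, interval 5.50 to 8.96%), against 88 of 304 other sgCtrl1 peaks (28.9%, interval 23.9 to 34.4%). The 2 intervals did not overlap there, as over the whole list. The contrasts in protein-coding gene bodies and in sequence with no gene were smaller there than over the whole file. Gene bodies held 349 sgCtrl1-only peaks (38.6%, interval 35.5 to 41.9%), against 74 other sgCtrl1 peaks (24.3%, interval 19.6 to 29.6%). No gene lay at 352 (39.0%, interval 35.8 to 42.2%), against 94 (30.9%, interval 25.8 to 36.4%), and these intervals overlap. Bodies of other kinds of gene held 10.7%, against 8.22%, and their ends 4.54%, against 7.57%, also with overlapping intervals. The median distance to the nearest annotated start was 26603 bp for sgCtrl1-only peaks there, against 13177.5 bp for other sgCtrl1 peaks. In the last 3 of 10 bins of the sgCtrl2 list, 109 of 1927 sgCtrl2-only peaks (5.66%) were at gene ends. In bins 8, 9 and 10 of the sgCtrl1 file the sgCtrl1-only share at gene ends was 12.8, 6.43 and 4.81%, against 31.6, 21.3 and 25% of other sgCtrl1 peaks.

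**Figure D3:**
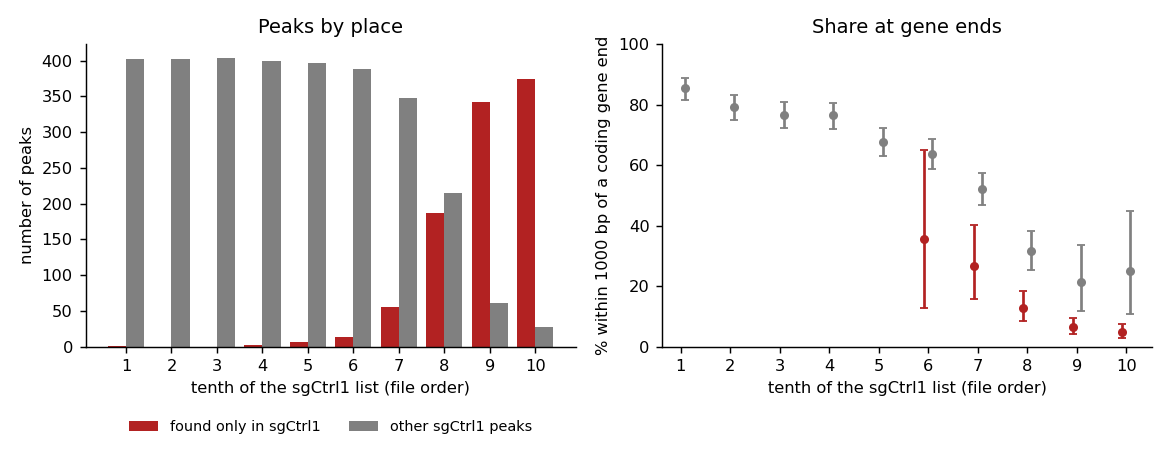
Left, number of sgCtrl1-only and other sgCtrl1 peaks in each of 10 equal bins of the file; right, percent of each at protein-coding gene ends with exact 95% intervals, drawn for the sgCtrl1-only peaks from bin 6 on. The sgCtrl1-only peaks number 187, 342 and 374 in the last 3 bins, where their shares at gene ends lie below those of the other peaks.

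The 86 gene-end peaks touched 101 protein-coding genes, and 15 of them lay at 2 or more. A 5′ end was touched by 55 (64.0%, interval 52.9 to 74.0%), against 1760 of 2061 other sgCtrl1 peaks at gene ends (85.4%). A 3′ end alone was touched by 13 (15.1%), against 32 (1.55%). The end could not be assigned for 17. The centre was within 200 bp of the end in 35 (40.7%), against 1554 (75.4%) of the other sgCtrl1 peaks there, and it lay outside the gene in 54 (62.8%), against 1692 (82.1%). In the last 1207 places, a 5′ end was touched by 39 of 64 sgCtrl1-only peaks at gene ends (60.9%, interval 47.9 to 72.9%), against 71 of 88 other sgCtrl1 peaks (80.7%, interval 70.9 to 88.3%), and the intervals overlap. A 3′ end alone was touched by 11 (17.2%), against 8 (9.09%), the centre was within 200 bp in 28 (43.8%), against 65 (73.9%), and it was outside the gene in 37 (57.8%), against 58 (65.9%).

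Gene ends were also searched for peaks of the other lists, and the rule bears on this count, since it leaves out overlapping peaks. Of the 101, 71 had no peak at an end in another list, 30 had one, and 10 had one in all 5. Another sgCtrl1 peak lay at an end of 16 of the 101, against 12.2% of all 20033 protein-coding genes. The share of all genes with a peak in the other lists was not computed, so 71, 30 and 10 have no background here. The 10 genes with one in all 5 were H2BC17, MTHFD2, LOC128031837, LIN7B, BSN, INTS5, ZNF653, ECSIT, NAPA and ISL2. At BSN, INTS5, ISL2 and LIN7B the nearest peak of another list was 33383, 6433, 5309 and 4963 bp away. There the gene-end peaks of the other lists thus lay at the opposite end of the gene. At the rest of these genes the nearest was 813 bp away or less, so the sgCtrl1-only peak lay beside a peak of another list. LOC105371932 was the gene with more than 1 such peak at its ends, with 2.

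The 20 gene-end peaks that stand first in the file, from place 1314 on, are described by what their genes do. Genes of transcription were MED25, a Mediator subunit, with its peak 237 bp upstream of the 5′ end and 219 bp from an sgCtrl2 peak, ZNF644, a zinc finger protein, 213 bp upstream, PHF12, a PHD finger protein of a histone deacetylase complex, 953 bp upstream, and ZNF660, 207 bp upstream, an end it shares with the readthrough gene ZNF660-ZNF197. MED25 had gene-end peaks in 4 other lists and PHF12 in 3, and ZNF644 and ZNF660 in none.

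Genes of protein synthesis and turnover were RPS19, a small ribosomal subunit protein, with a peak 532 bp upstream, OSTC, a subunit of the oligosaccharyltransferase, 266 bp upstream, SGTA, a co-chaperone for tail-anchored proteins, 150 bp upstream, and USP9X, a deubiquitinase, 856 bp outside an end. The RNF167 peak was centred 164 bp inside that gene, an E3 ubiquitin ligase, and 12 bp upstream of an annotated start of it. The same peak also lay at the 5′ end of SLC25A11, the mitochondrial oxoglutarate carrier. RPS19 had a gene-end peak in RH4 NFYB, and the other 5 genes had none elsewhere.

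Genes of metabolism, signalling and the cytoskeleton made up most of the rest. MTHFD2, the mitochondrial one-carbon enzyme, had its peak centred 457 bp inside the 5′ end, 181 bp from an RH4 NFYB peak. ADIPOR1, an adiponectin receptor, had one 244 bp inside, which was 16 bp upstream of an annotated start of that gene. PPM1N, a protein phosphatase, had one 653 bp inside an end, and S100A1, a calcium-binding protein of muscle, one 892 bp upstream. The S100A1 peak also lay in the body of S100A13, 37 bp upstream of an annotated start of that gene. LMOD1, ANXA6 and SLC68A1, shown above, had theirs 61, 68 and 54 bp upstream, and none of the 3 had a gene-end peak in another list. UNK, a zinc finger RNA-binding protein, had the earliest peak (place 1314), 116 bp outside an end, and SPAG4, a sperm-associated SUN-domain protein, one 630 bp inside. Of the 20, those at DRAM1 and H2BC17 lay at a 3′ end, and the end could not be assigned for UNK, USP9X, SPAG4 and PPM1N. DRAM1, a lysosomal membrane protein of autophagy, had its centre 1084 bp beyond the end, and H2BC17, a replication-dependent histone H2B gene, 469 bp beyond, with a peak at an end in all 5 other lists.

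Later in the file, peaks shared by neighbouring genes were chosen for mention after their values were seen. A peak lay at the 5′ ends of both genes for MORN5 and NDUFA8 (60 bp outside the nearer end), HPD and PSMD9 (73 bp), ZNF207 and C17orf75 (67 bp), and TIMM9, a mitochondrial import chaperone, and KIAA0586 (149 bp). The HPD and PSMD9 pair, a tyrosine-breakdown enzyme and a proteasome assembly factor, was 28345 bp from the nearest peak of another list, and the ZNF207 pair 222338 bp. The peak at ECSIT and ZNF653 was 183 bp from an RH4 NFYB peak, and the peak at POLR2A, ZBTB4 and SLC35G6 was 1065 bp from an sgCtrl2 peak. Single-gene ends included MCL1, which encodes an inhibitor of apoptosis, and PIM1, a serine-threonine kinase, at places 2915 and 2946.

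Among gene classes, the end counts are read against 101 of 20033 protein-coding genes, 0.504%. In short lists of classes that NF-Y is known for, other sgCtrl1 peaks covered many of the genes, against 12.2% of all genes. Such lists would hold less than 1 gene at 0.504%, so an sgCtrl1-only count of 0 is no result about the class. Of 20 endoplasmic reticulum stress and folding genes, 0 had an sgCtrl1-only peak at an end, against 17 with another sgCtrl1 peak. The counts were 0 against 13 of 20 for cholesterol and fatty acid synthesis, 0 against 12 of 20 for G2/M and S phase, 0 against 11 of 20 for DNA repair, and 0 against 6 of 8 for NF-Y subunits and partners. The list of serine and one-carbon genes had MTHFD2 as 1 of 10, against 8. By the rule, a gene whose site is in another list is counted only where a further peak, not overlapping that site, lies at either of its ends. An sgCtrl2-only peak lay at an end of 4.09% of all protein-coding genes.

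Muscle and tumour lists were likewise empty. Of 25 myogenic genes and 20 reported PAX3-FOXO1 targets, 0 had an sgCtrl1-only peak at an end, against 5 and 3 with another sgCtrl1 peak. The blood, liver and MHC class II lists also had 0 at an end. At the background of 0.504%, lists of this size would hold less than 1 gene.

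The larger families held small counts. RNA polymerase II, Mediator and Integrator genes had 4 of 61 (6.56%), namely INTS2 and INTS5 of Integrator, which trims small nuclear RNAs, MED25, and POLR2A, the largest polymerase subunit. ZNF genes had 6 of 517 (1.16%), namely ZNF207, ZNF644, ZNF653, ZNF660, its readthrough ZNF660-ZNF197 and ZNF839. Replication-dependent histone genes had 2 of 69, H2BC17 and H4C2, and cytosolic ribosomal protein genes 2 of 86, RPS19 and RPL19. Oxidative phosphorylation had 2 of 96, COX6A1 of cytochrome oxidase and NDUFA8 of complex I, and solute carriers 2 of 352, SLC25A11 and SLC68A1. Heat shock (HSF1, the heat shock transcription factor), mitochondrial ribosome (MRPL11), proteasome (PSMD9), keratin (KRT36) and ion channel (CACNB1, a calcium channel subunit) lists had 1 each. Olfactory receptors had 0 of 392, and cadherin, HOX and collagen families 0 each. These counts, of 6 or fewer, were not tested against the share over all genes.

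In gene bodies the background was 1.75% of protein-coding genes. Ion channel genes had 6 of 180 there (3.33%), namely CACNA1C, CACNA2D1, CACNG6, GRIN2D, KCNAB2 and KCNC1. Collagens had 3 of 44 (6.82%), namely COL24A1, COL27A1 and COL4A4. Below the background were ZNF genes with 5 of 517 (0.967%) and solute carriers with 5 of 352 (1.42%). Gene length was not corrected for.

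The 372 peaks in gene bodies fell in 350 genes, since 10 of them lay in more than 1. Each was then assigned to the longest gene it lay in, which gave 340 hosts. The median host length over peaks was 117036 bp, against 55419 bp for the hosts of other sgCtrl1 body peaks and 136782 bp for those of sgCtrl2-only peaks. The peaks lay a median of 51352.5 bp from the 5′ end, over 302 with an assigned strand, against 14465 bp for other sgCtrl1 peaks, and 46 (15.2%) were within 10 kb of it, against 170 (44.5%). In the last 1207 places these values were close between the sets, with a median host of 117047 bp for sgCtrl1-only peaks, against 126437 bp for other sgCtrl1 peaks. The peaks lay a median of 50746 bp from the 5′ end there, against 48229 bp, and 42 (14.8%) were within 10 kb of it, against 12 (19.4%). Of the hosts, 28 held 2 or more. R3HDM2, TENM4 (a teneurin of neuronal wiring), RPS6KC1 and ST6GALNAC5 (a sialyltransferase) had 3 each, and genes with 2 included NUMA1, which organises spindle poles.

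The 10 peaks away from protein-coding gene ends that stand first in the file were of mixed kinds. The earliest of all, at place 31, was chr16:46390367-46390555, with no gene, 41 bp from an sgCtrl2 peak. The next, chr21:8219916-8220104 at place 1407, lay at the ribosomal RNA genes RNA28SN2 and RNA45SN2. Then came a peak in the body of TSPAN11, a tetraspanin, 295 bp upstream of TSPAN11-AS1, and the NDRG4 peak shown above, 104 bp upstream of another annotated start of that gene. MAP3K7CL and ATG4B, a protease of autophagy, had peaks in their bodies. The others were chr17:74193477-74193665 and chr5:49599423-49599611 with no gene, chr16:57300594-57300782 at the leucine tRNA genes TRL-CAG2-1 and TRL-CAG2-2, and chr14:95346767-95346955 at LOC107984710.

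Among the 896, 12 lay within 300 bp of another annotated start, such as the CNN3 peak 21 bp upstream, the ISG20 peak 22 bp upstream and the UBE2D3 peak 104 bp upstream. An lncRNA end was touched by 44 (4.91%), against 185 of 982 other sgCtrl1 peaks away from protein-coding ends (18.8%). In the last 1207 places these were 38 of 839 (4.53%), against 23 of 216 (10.6%). An lncRNA body held 148 (16.5%), against 185 (18.8%). Over all 982, 8 of the 536 tRNA genes in the table (1.49%) had such a peak at an end, against 14 (2.61%) with another sgCtrl1 peak, and 1 peak can touch several neighbouring ones. Over all 39642 genes that are not protein-coding, the shares were 0.217% with an sgCtrl1-only peak and 1.91% with another sgCtrl1 peak. Small nucleolar and nuclear RNA genes had 3 of 3391 (0.0885%), against 25 (0.737%).

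Few of the peaks came near the boundary of the rule. The median gap to the nearest peak of another list was 63625.5 bp, and 26527 bp for the 86 gene-end peaks against 69138 bp for the rest. Sites within 1000 bp numbered 56 (5.70%), 18 of 86 at gene ends (20.9%) and 38 of 896 elsewhere (4.24%). The nearest list for these 56 was sgCtrl2 in 26, RH4 NFYB in 9, sgCCAAT2a in 8, sgCCAAT2b in 8 and RH4 NFYC in 5. Of the 982, 22 were within 100 bp, 168 within 10 kb and 599 within 100 kb. For sgCtrl2-only peaks the median gap was 142294 bp.

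Just inside the rule were the DRAM1 peak and chr1:8898635-8898823, each touching an sgCCAAT2b peak with no base between, chr5:177327896-177328084 (1 bp from an sgCtrl2 peak), the NAPA peak (4 bp from an RH4 NFYB peak) and chr9:29866188-29866376 (4 bp from an sgCCAAT2b peak). NAPA encodes alpha-SNAP, which helps take apart SNARE complexes after membrane fusion. Just outside it, overlapping another list, were C15orf39 (2 bp), chr14:85934207-85934395 (3 bp), RFPL3 and SLC5A4 (6 bp), a peak in SYNE1 (6 bp) and chr4:7120568-7120756 (9 bp). Within the library itself, 25 of the 982 had another sgCtrl1 peak within 1000 bp.

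**Figure D4:**
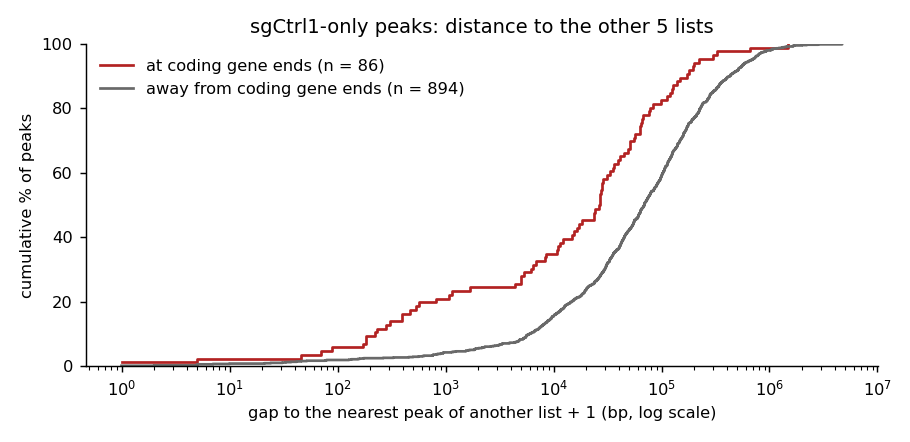
Distance from each sgCtrl1-only peak to the nearest peak of the other 5 lists, as the gap plus 1 in bp on a log axis, as the cumulative share of 86 gene-end and 894 other peaks, which leaves out 2 with no other peak on their chromosome. The gene-end curve lies at shorter distances, with medians of 26527 bp and 69138 bp.

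Chromosome 1 held more of them than any other, 163, which was 33.4% of its 488 sgCtrl1 peaks (interval 29.2 to 37.8%) and 16.6% of all sgCtrl1-only peaks, against 10.7% of the other sgCtrl1 peaks. By number, chromosome 17 followed with 91 of 339 (26.8%), then chromosome 2 with 75 of 246 (30.5%). Shares were computed for the numbered chromosomes and X, and not for Y, which also held sgCtrl1-only peaks. Of these shares, the highest was 45 of 129 on chromosome 20 (34.9%), and the lowest were 52 of 440 on chromosome 19 (11.8%) and 12 of 92 on X (13.0%). Gene-end sgCtrl1-only peaks numbered 14 on chromosome 17, 11 on chromosome 1 and 8 on chromosome 19. In the last 1207 places, where 74.8% of all peaks were sgCtrl1-only, chromosome 1 had 153 sgCtrl1-only and 38 other peaks (80.1%), chromosome 17 had 80 and 20 (80.0%), chromosome 2 had 69 and 5 (93.2%) and X had 8 and 9 (47.1%). Another 10 lay on 7 contigs that are unplaced or not localised within a chromosome.

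**Figure D5:**
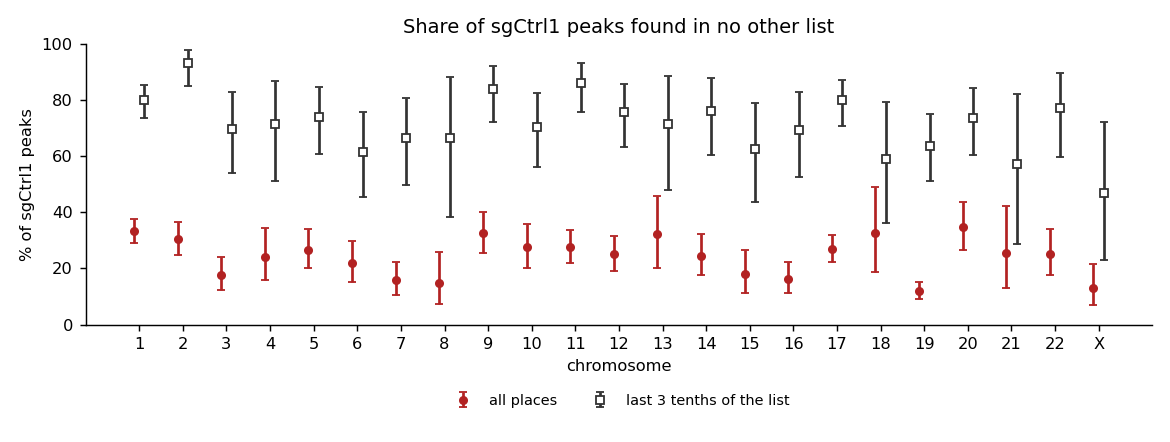
sgCtrl1-only peaks as a share of all sgCtrl1 peaks per chromosome, in percent with exact 95% intervals, over all places (filled) and over the last 1207 places (open). Y is not drawn. Of those drawn, over all places, chromosome 20 (34.9%) and chromosome 1 (33.4%) are highest and chromosome 19 (11.8%) and X (13.0%) lowest.

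Tight clusters were rare. With neighbours at most 10 kb apart, 1 run of 3 or more was found, 3 peaks on an unplaced contig, and 16 runs of 2 or more held 33 peaks. At 100 kb there were 15 runs of 3 or more. The largest held 8 peaks over 175605 bp at chr12:58096115-58271719, a stretch with no protein-coding gene and with LOC105369784, LOC105369786 and RPL21P103. All 8 sgCtrl1 peaks of the stretch were sgCtrl1-only, 4 sgCtrl2 peaks lay there too without overlapping them, and the edited and RH4 lists had 0. The second, chr1:113207166-113358526, held 4 peaks and no annotated gene. The others held 3 each, such as one at KLRF1, CLEC2B, CLEC2A and KLRF2, lectin-like receptor genes of the natural killer complex, one at HABP2 and NRAP, and one at SLFN5 and LOC105371932. In the run at chr1:143202345-143266575, sgCtrl2, sgCCAAT2a and sgCCAAT2b had 11, 16 and 15 peaks.

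By fixed 1-Mb bins, 464 held 1 sgCtrl1-only peak, 127 held 2, 55 held 3 and 17 held 4. The bin starting at 58 Mb of chromosome 12 held 8 and its neighbour at 57 Mb held 6, of which 3 were in R3HDM2 and 1 at the end of DCTN2. In the 58 Mb bin sgCtrl1 had 9 peaks in all, sgCtrl2 10, sgCCAAT2a 3, sgCCAAT2b 2 and the RH4 lists 0 each. The bin at 204 Mb of chromosome 1 held 7, with 2 of them in NFASC, a cell adhesion protein of axons.

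The library had 13.9 M tags with 2.40% in peaks. The other RH30 libraries had 21.2 (sgCCAAT2a), 28.2 (sgCCAAT2b) and 10.5 M tags (sgCtrl2), with 1.22, 1.46 and 3.10% in peaks. Peaks found only in their own list made up 52.5% of sgCtrl2, 3.47% of sgCCAAT2a, 3.32% of sgCCAAT2b, 6.07% of RH4 NFYB and 9.39% of RH4 NFYC. The RH30 libraries with the higher shares of tags in peaks, sgCtrl1 and sgCtrl2, were also those with the higher shares of peaks found in no other list. They also had the fewest tags and the longest lists, 4025 and 6687 peaks, against 2451 for sgCCAAT2a and 2558 for sgCCAAT2b. The part of any of these in the result was not tested.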

How the data were processed

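Peak positions (BED, hg38 per the submitters' processing notes) and the peak score column, which is the constant 1 in every row, were taken as the authors deposited them. Per the submitters' processing notes, HOMER, Bowtie2, Trimmomatic, FastQC, MACS2, bedtools and deepTools were used. The RH30 peaks needed, per the file headers, 2-fold enrichment over an input library and 4-fold over the surrounding 10000 bp; of 862370 putative sgCtrl1 peaks, 857864 were removed by the input filter, and peaks are 189 bp wide. Peaks were called per library. The IgG libraries and the authors' differential tables were not used here.

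From these, overlaps of at least 1 bp, gene-end windows of 1000 bp and gaps were computed with numpy 2.4.6, pandas 2.3.3 and scipy 1.17.1 against RefSeq genes of GRCh38.p14. On simulated lists, 60 of 60 overlap and gene-end calls matched bedtools 2.31.1. Promoter windows matched on both strands for 127 of 127 opposite pairs. Intervals are exact Clopper-Pearson 95%. Genes were named by fixed rules: the first 20 gene-end and 10 other peaks in file order, list members, genes with several peaks, the largest clusters and the 5 peaks on each side of the rule; others were chosen after their values were seen. The members and all 28 gene lists were chosen with earlier results of these data known.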

Additional observations from a re-analysis of the deposited data

How the results depend on the processing

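Of 91 alternatives, 67 left the value within its interval or within 1.5 times the count, and 24 moved it. Changes of direction were not scored, and a gene list that held 0 under both settings counted as left. The share of sgCtrl1 peaks found only there, 24.4%, was 28.0% (1128 peaks) when sharing required overlap of 50% of both peaks, 23.01% (926) when no other peak was allowed within 1000 bp, 27.3% (1098) against the 3 other RH30 lists alone, and 0.447% (9 of 2012) in the first 2012 places. The share at protein-coding gene ends, 8.76%, was 6.42% with a window of 500 bp, 14.8% with 3000 bp, 15.3% over all genes of the table, 13.0% (147 of 1128) with the 50% overlap and 22.2% (2 of 9) in the first 2012 places. The gene body share, 37.9%, was 46.6% over all genes. Clusters numbered 9 at 50 kb, 15 at 100 kb and 16 of at least 2 peaks, against 1. Restricted to gene-end peaks, chromosome 1 had 12.8%, chromosome 17 had 16.3% and chromosome 19 had 9.30% of them, against 16.6, 9.27 and 5.30% of all sgCtrl1-only peaks. The share in the last 1207 places, 92.0%, was 85.0% against the RH30 lists alone, and the genes touched at an end numbered 176 with 3000 bp, against 101. Of 55 values for single gene lists and for the other sgCtrl1 peaks, 6 moved. Alternatives restricted to the last 1207 places, and further ones for place, gap and motif, were chosen after seeing the data. No paired analysis was possible because each guide and antibody had 1 library and no result comes from a test. What depth limits could not be read, since the peak lists used here hold positions and no read counts per peak.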
